A study of Arabidopsis thaliana with 24 samples.

Results

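The comparison described here set pistils of the 35S::PIF4 line against pistils of Col-0, both at normal ambient temperature (nAT), and covered 8 of the 24 RNA sequencing libraries of the series. The 35S::PIF4 line carries PIF4 under a constitutive viral promoter, so the transgene is driven in all tissues rather than in the cells that normally express it. Col-0 is the wild type and carries no transgene. Each group had 4 biological replicates, and its plants were grown at 21 °C in the light and 18 °C in the dark with 16 h of light and 8 h of dark, without a transfer to warmth. Gynoecia came from unopened flowers of stages 11 to 12. The sample titles name pistils, as the study's methods do, while other sample labels speak of ovules as the RNA source. The text uses pistils, and carpel genes were expressed throughout. The rest of the series consists of 4 libraries each of 35S::PIF4 and Col-0 from plants moved to high ambient temperature (hAT, 28 °C in the light and 24 °C in the dark) and of the phyB mutant at nAT and at hAT. Whether the 4 replicates of a group came from separate plants or separate pools of plants is not stated in the sources used here, so the p-values measure the spread between these libraries. Of the 33055 rows of the count table, 19742 had enough reads to be tested in these 8 libraries.

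PIF4 is a basic helix-loop-helix transcription factor that binds E-box and G-box sequences in promoters. Active phytochrome B, a red light receptor that loses activity as temperature rises, binds PIF4, blocks it and sends it to degradation. In seedlings PIF4 induces auxin, brassinosteroid and cell elongation genes in shade and warmth. The comparison of 35S::PIF4 with Col-0 without warming asks which pistil transcripts differ when PIF4 is produced constitutively.

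The libraries held 21280069 to 30184035 counts in 35S::PIF4 and 18379748 to 23880837 in Col-0. A gene was called when the edgeR quasi-likelihood test gave a Benjamini-Hochberg adjusted p under 0.05 over all tested genes and the log2 fold change, 35S::PIF4 over Col-0, was at least 1 in size. With the usual TMM scaling 3678 genes were higher in 35S::PIF4 (18.6% of those tested) and 2440 were lower (12.4%). These calls followed gene length, the summed length of a gene's exons. Genes were divided by length into 10 classes of equal size. In the shortest class (median 691 bases) the median log2 fold change was -0.76 and 37.5% were lower in 35S::PIF4, whereas in the longest class (median 3870 bases) it was 1.19 and 59.8% were higher.

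The trend lay in the Col-0 libraries at nAT. Weighted by counts, the mean gene length was 2130, 2065, 2141 and 2087 bases in the 35S::PIF4 libraries, against 1743, 1612, 1804 and 1758 bases in the Col-0 libraries at nAT. The groups did not overlap, with means of 2106 ± 35.8 bases in 35S::PIF4 and 1729 ± 82.4 bases in Col-0 (SD, n = 4 each). An exact two-sided permutation test of the means gave p = 0.0286, the smallest that 4 against 4 libraries can give. The trend was known from these same libraries beforehand, so this p-value describes it and is no independent test. In the other 16 libraries, Col-0 at hAT included, the mean was 2115 to 2220 bases. The 10 most abundant genes took 3.58 ± 0.132% of the counts in 35S::PIF4 and 6.52 ± 0.11% in Col-0 at nAT, and genes with at least 1 count numbered 23600 ± 187 in 35S::PIF4 and 22530 ± 303 in Col-0 (SD, n = 4 each). Col-0 replicate 2 deviated most along length, and pairs of Col-0 libraries that included it differed by a chi-square of 32.4 to 58.4 per degree of freedom, against 3.1 to 8.78 in the other Col-0 pairs and 2.32 to 11.5 between 35S::PIF4 libraries. The length trend and the genotype come in the same 4 Col-0 libraries and cannot be told apart by any comparison inside them.

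**Figure D1:**
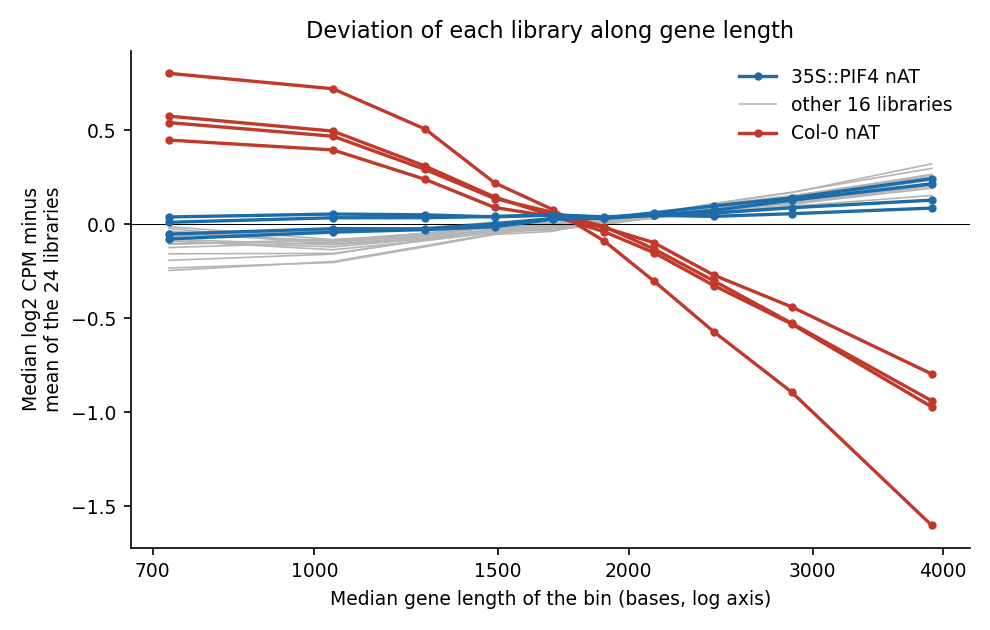
Median deviation of each library from the mean of the 24 libraries (log2 CPM, vertical axis) in 10 classes of genes ordered by length (median length in bases, log axis). The 4 Col-0 libraries at nAT fall steeply with length, while the 4 libraries of 35S::PIF4 at nAT lie with the other 16.

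A smooth curve of each library's deviation along gene length was therefore fitted and entered as an offset, and the test was repeated. With this length offset 2560 genes were higher (13% of those tested) and 1443 were lower (7.31%). Spearman's rho across genes between length and log2 fold change was 0.52 with TMM scaling and -0.03 with the offset, genes being no independent replicates. In the longest class 11.2% of genes were still higher with the offset.

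Genes called the same way with TMM scaling and with the length offset are the changes that remained with the correction. There were 2065 higher in 35S::PIF4 (10.5% of those tested) and 976 lower (4.94%). Since a call with TMM scaling was also required, the lower ones still followed length. They were 8.55% of the shortest class and 0.304% of the longest, and the higher ones 11.4% and 11.2%. Genes called in both fits made up 56.1% of the TMM calls of higher and 40% of the TMM calls of lower genes. A further 1611 higher and 1464 lower genes were called with TMM scaling alone, and 495 higher and 465 lower ones were not called with TMM scaling and appeared with the offset. Higher genes made up 60.1% of all calls with TMM scaling and 64.0% with the offset. The median over all tested genes was close to 0 in each case, at 0.02 with TMM scaling and 0.01 with the offset.

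**Figure D2:**
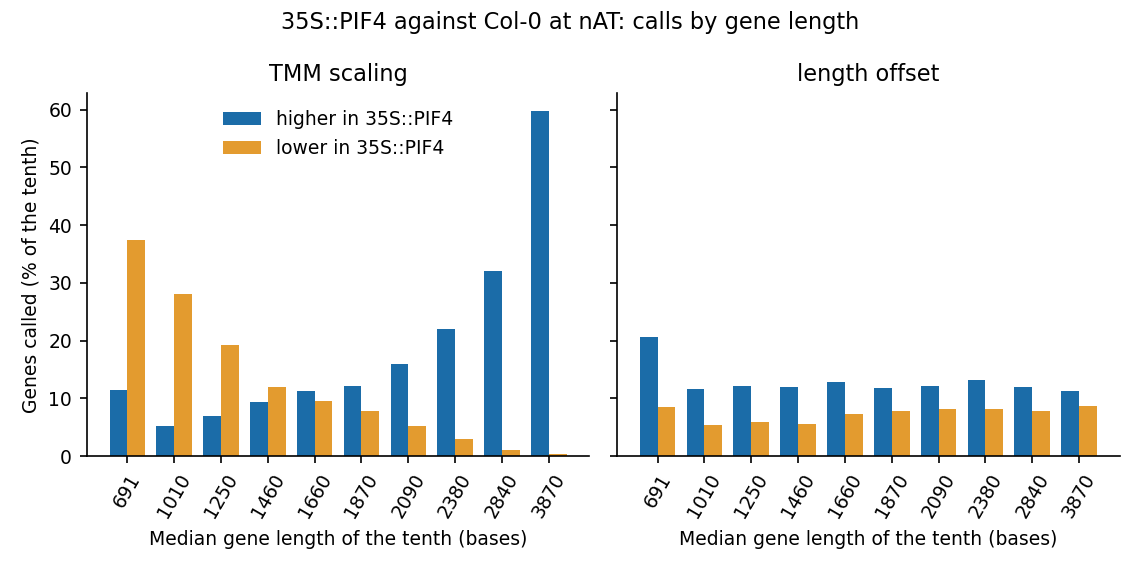
Share of genes called higher (blue) or lower (orange) in 35S::PIF4 than in Col-0 at nAT, in 10 classes of genes by length (median length in bases). With TMM scaling the share of higher calls climbs to 59.8% in the longest class and that of lower calls to 37.5% in the shortest, and with the length offset the longest class has 11.2% higher calls.

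The genes that remained were mostly low in one group. Those higher in both fits had a median level of 9.19 CPM (counts scaled to a fixed library total) in 35S::PIF4 and 2.24 CPM in Col-0, with a median length of 1911 bases. Those lower in both had a median of 6.02 CPM in 35S::PIF4 and 18.9 CPM in Col-0, with a median length of 1539 bases. The higher genes called with TMM scaling alone had a median length of 3441 bases and the lower ones 958 bases. The 4 libraries a side did not overlap in CPM for 68.9% of all tested genes with TMM scaling and for 62.3% with the length offset, so separation of the groups by itself was the common case.

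PIF4 itself (AT2G43010, chromosome 2, 17886101-17889087, + strand, TAIR10) was low but higher in the overexpression line. It had 5.04, 5.54, 5.04 and 4.90 CPM in 35S::PIF4, against 1.87, 1.08, 2.06 and 2.36 CPM in Col-0. The groups did not overlap. The log2 fold change was 1.45 (SE 0.20, adjusted p = 7.5e-05) with TMM scaling and 0.99 (SE 0.18, adjusted p = 0.00040) with the length offset, just under the threshold on its size, and over the other settings it lay between 0.87 and 1.12. In CPM scaled over all 24 libraries, PIF4 was at 5.71 to 6.39 in 35S::PIF4 at nAT, 3.55 to 5.17 in 35S::PIF4 at hAT, 2.46 to 4.44 in phyB at nAT, 3.44 to 4.04 in phyB at hAT, 2.09 to 2.82 in Col-0 at hAT and 1.21 to 2.72 in Col-0 at nAT. The 35S::PIF4 libraries at nAT were above all others, while those of phyB at nAT and 35S::PIF4 at hAT overlapped. The counts do not separate transcripts of the transgene from those of the endogenous gene.

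PHYB (AT2G18790), the receptor upstream of PIF4, is a long gene whose direction depended on the scaling. It had 106, 93.5, 109 and 86.2 CPM in 35S::PIF4, against 74.0, 47.1, 81.7 and 75.5 CPM in Col-0. Its log2 fold change was 0.50 (SE 0.16, adjusted p = 0.013) with TMM scaling and -0.79 (SE 0.064, adjusted p = 7.6e-07) with the length offset, and it was not called in either. Of 24 tested genes of the phyB-PIF pathway 2 were higher and 1 was lower in both fits (8.33% and 4.17%, against 10.5% and 4.94% of all tested genes). The median was 0.92 with TMM scaling and 0.30 with the offset. PIL1, a bHLH protein that acts beside the PIFs and is itself induced in shade, had 15.1, 15.2, 19.2 and 13.5 CPM in 35S::PIF4, against 7.85, 5.26, 10.9 and 7.38 CPM in Col-0. Its libraries did not overlap, and the log2 fold changes of 1.00 with TMM scaling and 1.06 with the offset sat on the threshold, so that leaving out Col-0 replicate 2 (0.91 with the offset) or 35S::PIF4 replicate 3 (0.95), or Col-0 replicate 4 with TMM scaling (0.98), ended the call. The other member that rose, listed as BHLH72 and described as PIF7, averaged 0.799 ± 0.29 CPM in 35S::PIF4 and 0.263 ± 0.067 CPM in Col-0 (SD, n = 4 each). PCL1, the evening clock protein LUX, fell by 1.1 with TMM scaling and by 2.26 with the offset.

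Genes that PIF4 induces in seedlings were called in both directions. Of 28 tested, 3 were higher and 2 lower in both fits (10.7% and 7.14%, against 10.5% and 4.94% of all tested genes), and their median was -0.45 with TMM scaling and -0.08 with the offset. With a further offset on length and exon number (added after the data were seen) 1 was higher (3.57%, against 8.91% of all), and PIL1 (0.97) and CYP85A2 (0.94) were not called. CYP85A2, which makes brassinolide in the last step of brassinosteroid synthesis, had 26.1, 25.9, 26 and 25.9 CPM in 35S::PIF4, against 12.3, 11.3, 9.94 and 9.51 CPM in Col-0. Its log2 fold change with the offset was 1.23 (SE 0.095, adjusted p = 5.6e-07), with no overlap between the groups. FHL, a carrier of phytochrome A into the nucleus, had 2.70, 2.83, 1.69 and 2.27 CPM in 35S::PIF4, against 0.543, 0.864, 1.65 and 0.662 CPM in Col-0. The lowest 35S::PIF4 library and the highest Col-0 library of FHL nearly met, and the log2 fold change with the offset was 1.5 (SE 0.33, adjusted p = 0.0017). FT, the mobile flowering signal that PIF4 induces in warm leaves, was lower. It had 0.548, 0.981, 0.777 and 0.796 CPM in 35S::PIF4, against 3.74, 2.09, 2.29 and 2.08 CPM in Col-0, a log2 fold change with the offset of -1.06 (SE 0.29, adjusted p = 0.0065) that was no longer called without Col-0 replicate 1 (-0.81) or without 35S::PIF4 replicate 1 (-0.94). SOT15, a sulfotransferase, averaged 1.76 ± 0.14 CPM in 35S::PIF4 and 6.59 ± 0.80 CPM in Col-0 (SD, n = 4 each).

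FHL was the only called seedling target whose promoter window held the G-box CACGTG, the preferred binding sequence of PIF4, and its window is printed to show where those letters stand. The window runs from 250 bases before to 50 bases after the annotated start (chr5:437115-437414, + strand, TAIR10.1), with both copies of CACGTG in capitals, the first base of one at -129 and of the other at -75 from the start.
FHL: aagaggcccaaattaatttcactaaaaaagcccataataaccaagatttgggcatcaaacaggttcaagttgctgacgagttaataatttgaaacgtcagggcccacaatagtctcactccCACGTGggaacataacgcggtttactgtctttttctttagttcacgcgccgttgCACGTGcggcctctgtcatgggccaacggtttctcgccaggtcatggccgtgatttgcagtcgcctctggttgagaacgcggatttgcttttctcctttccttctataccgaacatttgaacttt
Over all genes, CACGTG stood in the window of 169 of 2062 genes higher in both fits (8.20%), 94 of 944 lower in both (9.96%) and 1728 of 19659 tested genes (8.79%). The E-box CACATG, read on both strands, stood in 12.3% of the higher, 14.5% of the lower and 12.6% of all tested genes. Among the 28 seedling targets CACGTG was present in 2 (7.14%) and CACATG in 10 (35.7%). These motifs were counted as letters, whether or not PIF4 binds there.

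The largest rises that remained with the length offset included a pectin-modifying enzyme, transcription factors and an RNA splicing factor. PME68 (AT5G47500), a pectinesterase that removes methyl groups from cell wall pectin, had 356, 363, 349 and 320 CPM in 35S::PIF4, against 38.6, 25.8, 39.5 and 36.1 CPM in Col-0. Its log2 fold change was 3.31 with TMM scaling and 3.53 with the offset (SE 0.15, adjusted p = 1.5e-08). NFYC10 (AT5G38140), a subunit of the CCAAT-binding factor NF-Y, had 25.7, 22.4, 24.3 and 22.2 CPM in 35S::PIF4, against 2.60, 1.37, 3.00 and 1.14 CPM in Col-0, a log2 fold change with the offset of 4.05 (SE 0.24, adjusted p = 9.8e-08). SR34b (AT4G02430), a serine/arginine-rich protein of pre-mRNA splicing, had 35.1, 35.7, 35.8 and 34.2 CPM in 35S::PIF4, against 2.96, 1.22, 3.06 and 2.03 CPM in Col-0. In these 3 genes the groups did not overlap, which was a condition for being chosen among the largest rises. SR34b had a log2 fold change of 3.66 with the offset (SE 0.16, adjusted p = 1.6e-08).

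The other 7 genes among the 10 largest rises were NAP5 (an ABC protein, 4.14 with the offset), ERF015 (an AP2/ERF transcription factor, 3.96), ASNAP1 (an adaptor of vesicle fusion, 3.59), QWRF9 (a protein of the QWRF family, 3.57), CATHB1 (a cathepsin B protease, 3.53), PUB37 (a U-box protein, 3.44) and hemf2 (described as coproporphyrinogen oxidase, an enzyme of heme and chlorophyll synthesis, 3.43). All 10 were also called with the length and exon-number offset introduced below. In each of the 10, Col-0 at nAT had the lowest mean of the 6 groups of the series. Choosing the 10 largest rises over Col-0 at nAT favours this rank, and the rank over all tested genes was not counted. Against Col-0 at hAT, a comparison that shares no library with the one at nAT, the log2 fold changes of these genes in 35S::PIF4 at hAT were -0.21 to 0.67 and none was called. In 35S::PIF4 against phyB at nAT, which shares the 35S::PIF4 libraries, they were -0.59 to 0.40 and none was called.

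The largest falls included 2 genes of floral nectaries and an enzyme of auxin metabolism. SWEET9 (AT2G39060), the sugar transporter that exports sucrose for nectar, had 5.12, 5.91, 5.51 and 5.41 CPM in 35S::PIF4, against 41.5, 44.2, 39.5 and 38.2 CPM in Col-0. The log2 fold change was -2.89 with TMM scaling and -2.49 with the offset (SE 0.081, adjusted p = 4.3e-09). CWINV4 (AT2G36190), the cell wall invertase that splits sucrose in the nectary, had 17.3, 19.7, 19.2 and 17.4 CPM in 35S::PIF4, against 77.7, 77.8, 98.4 and 81.5 CPM in Col-0, a log2 fold change with the offset of -2.54 (SE 0.087, adjusted p = 4.3e-09). Neither gene had overlapping libraries, which was a condition for being chosen among the largest falls. In bulk tissue, fewer nectary cells in the sample and less RNA per nectary cell cannot be told apart. The same holds for every cell type below. Libraries of phyB at hAT ran from 3.73 to 37.9 CPM of SWEET9 and from 7.72 to 39.1 CPM of CWINV4, scaled over all 24 libraries. On that scale the other groups spread less, with SWEET9 at 5.9 to 6.82 CPM in 35S::PIF4 and 44 to 49.5 CPM in Col-0 at nAT. How much nectary tissue each library held was not tested.

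NIT2 (AT3G44300), a nitrilase that can form auxin from indole acetonitrile, had 1.17, 1.56, 1.49 and 2.47 CPM in 35S::PIF4, against 9.48, 17.7, 10.2 and 12.3 CPM in Col-0. Its log2 fold change with the offset was -2.72 (SE 0.23, adjusted p = 9.9e-07). NAT5 (AT5G49990), a member of the nucleobase-ascorbate transporters, had 11.0, 11.0, 8.96 and 11.4 CPM in 35S::PIF4, against 38.8, 37.2, 36.4 and 36.7 CPM in Col-0. NAT5 had a log2 fold change of -1.82 with TMM scaling and -2.34 with the offset (SE 0.12, adjusted p = 3.0e-08), and among these 10 falls it was the one also called lower at hAT, with a log2 fold change of -1.82. The remaining falls were CAF1-9 (a subunit of mRNA deadenylation, -2.65 with the offset), UNE15 (-2.59), APA3 (an aspartic protease, -2.39), LSU1 (induced by low sulfur, -2.36) and the chloroplast 23S ribosomal RNA genes RRN23S.2 (-2.58) and RRN23S.1 (-2.48). The last pair are copies in the chloroplast inverted repeat, and reads cannot be assigned to one of them. Col-0 at nAT had the highest mean of the 6 groups in 8 of the 10 genes, a rank that choosing the largest falls favours. Against phyB at nAT, NIT2, CAF1-9, SWEET9, APA3 and NAT5 were also lower in 35S::PIF4, at -2.32, -1.58, -1.67, -1.73 and -2.12, and LSU1 was higher, at 1.79.

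**Figure D3:**
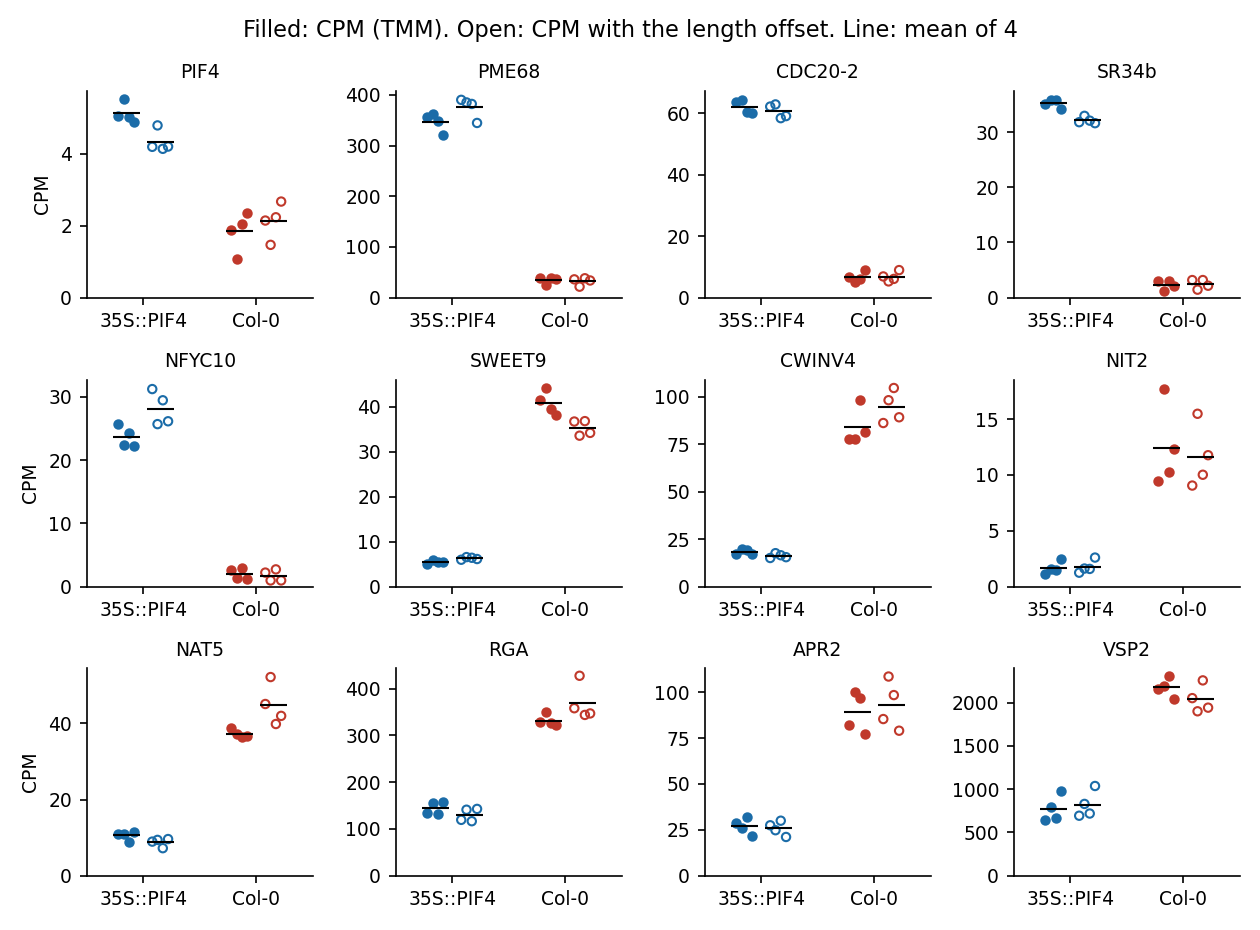
CPM of 12 genes in the 4 libraries of 35S::PIF4 (blue, left) and of Col-0 at nAT (red, right), with TMM scaling (filled) and with the length offset (open); bars are means of 4. In none of the 12 genes do the groups overlap. For PME68, SR34b, NFYC10, SWEET9, CWINV4, NIT2 and NAT5 this was a condition of their choice. For PIF4 the gap is narrower with the offset than with TMM scaling.

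Several genes of cell division rose. Of 48 tested kinesins, the motor proteins of spindle, phragmoplast and transport along microtubules, 38 were higher in 35S::PIF4 with TMM scaling and 9 in both fits (18.8%, against 10.5% of all tested genes), and none was lower. Kinesin genes are long, with a median length of 3560 bases, and their median log2 fold change was 1.4 with TMM scaling and 0.51 with the offset. In the longest length class 0.304% of all genes were lower in both fits, so the lack of lower kinesins says little. In CPM scaled over all 24 libraries, the kinesins summed to 707 to 1160 in Col-0 at nAT and 2160 to 2700 in the other groups. KIN7F, KIN7G, KIN7M and KIN4B averaged 115 ± 1.3, 78.0 ± 2.6, 59.4 ± 4.7 and 46.7 ± 2.2 CPM in 35S::PIF4, against 18.4 ± 2.4, 16.2 ± 4.2, 11.6 ± 4.0 and 7.64 ± 2.7 CPM in Col-0 (SD, n = 4 each). With the offset their log2 fold changes were 1.55, 1.06, 1.27 and 1.65. The phragmoplast kinesin KIN12D was called with TMM scaling alone, at 2.73 against 0.80 with the offset.

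Among 35 tested genes of the mitotic cycle, 7 were higher in both fits (20%, against 10.5% of all tested genes) and none was lower. The median was 0.29 with TMM scaling and 0.27 with the offset. CDC20-2 (AT4G33260), which activates the anaphase-promoting complex, had 63.7, 64.4, 60.3 and 60 CPM in 35S::PIF4, against 6.76, 5.11, 6.06 and 8.89 CPM in Col-0. Its log2 fold change was 3.2 with TMM scaling and 3.1 with the offset (SE 0.13, adjusted p = 1.2e-08). The neighbouring and closely related CDC20-1 averaged 113 ± 5.8 CPM in 35S::PIF4 and 28.1 ± 1.5 CPM in Col-0 (SD, n = 4 each), and reads shared by the pair may be split between them. The cyclins CYCB3;1 and CYCA2-2 rose by 1.53 and 1.16 with the offset, the CYCA2-2 call being lost without Col-0 replicate 2 (0.99). In the DNA replication list 3 of 32 genes were higher in both fits, a share of 9.38% that was not above the 10.5% of all tested genes. They were MCM10, MCM8 and CDC6 at 1.52, 1.52 and 1.05, and none was lower. The CDC6 call was lost without 35S::PIF4 replicate 1 (0.94) or Col-0 replicate 3 (0.97). Histone genes, which are short, went the other way, with 4 of 32 lower and 1 higher in both fits and medians of -0.88 with TMM scaling and -0.21 with the offset. Histone families hold near-identical copies, so single members are uncertain, and without Col-0 replicate 2 the 4 became 2.

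Some small RNA and splicing genes were higher in both fits. Of 21 tested genes of the small RNA machinery, 10 were higher with TMM scaling and 3 in both fits (14.3%, against 10.5% of all tested genes), with none lower and medians of 0.96 and 0.08. These genes are also long (median 3640 bases), so the lack of lower ones says little. Their CPM, scaled over all 24 libraries, summed to 753 to 1260 in Col-0 at nAT and 2540 to 3010 in the other groups. DCL1 (AT1G01040), which cuts microRNAs from their precursors, had 77.9, 66.9, 77.8 and 66.8 CPM in 35S::PIF4, against 9.96, 4.18, 9.59 and 10.9 CPM in Col-0. The log2 fold change was 3.05 with TMM scaling and 1.4 with the offset (SE 0.099, adjusted p = 3.0e-07). AGO9 (AT5G21150), an ovule argonaute that keeps somatic cells from forming gametes, had 689, 649, 695 and 642 CPM in 35S::PIF4, against 176, 107, 212 and 178 CPM in Col-0, or 1.99 with TMM scaling and 1.26 with the offset on the log2 scale. DCL2 rose by 1.05 with the offset, a call lost without Col-0 replicate 1 (0.96) or 3 (0.98). No library of DCL1 or AGO9 overlapped between the groups. Of 20 SR splicing factors 4 were higher in both fits (20%; 2 with a straight-line trend) and none was lower. Beside SR34b these were SR30, SR45A and RS31A, at 1.32, 1.11 and 1.03 with the offset, and RS31A lost its call without Col-0 replicate 3 (0.93) or 35S::PIF4 replicate 4 (0.99).

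The number of exons was a further property along which these libraries differed. With the length offset, the median log2 fold change was -0.43 in 2753 genes with 1 exon, -0.16 with 2 to 4 exons, 0.09 with 5 to 7, 0.25 with 8 to 11 and 0.35 in 2775 genes with 12 or more. Of the single-exon genes 7.26% were higher and 14.2% lower in both fits, and of those with at least 12 exons 19.7% were higher and 0.324% lower. The order held within classes of like length. Over 1500 and up to 2000 bases, for example, the medians ran from -0.55 to 0.50 across the same exon classes. The medians by exon class were much closer together in the other comparisons. They ran from -0.02 to 0.02 in 35S::PIF4 against phyB at nAT and from 0.04 to -0.01 against Col-0 at hAT over all lengths, and within length classes they lay between -0.13 and 0.09 and between -0.05 and 0.06. The part of exon number in any single change was not tested.

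**Figure D4:**
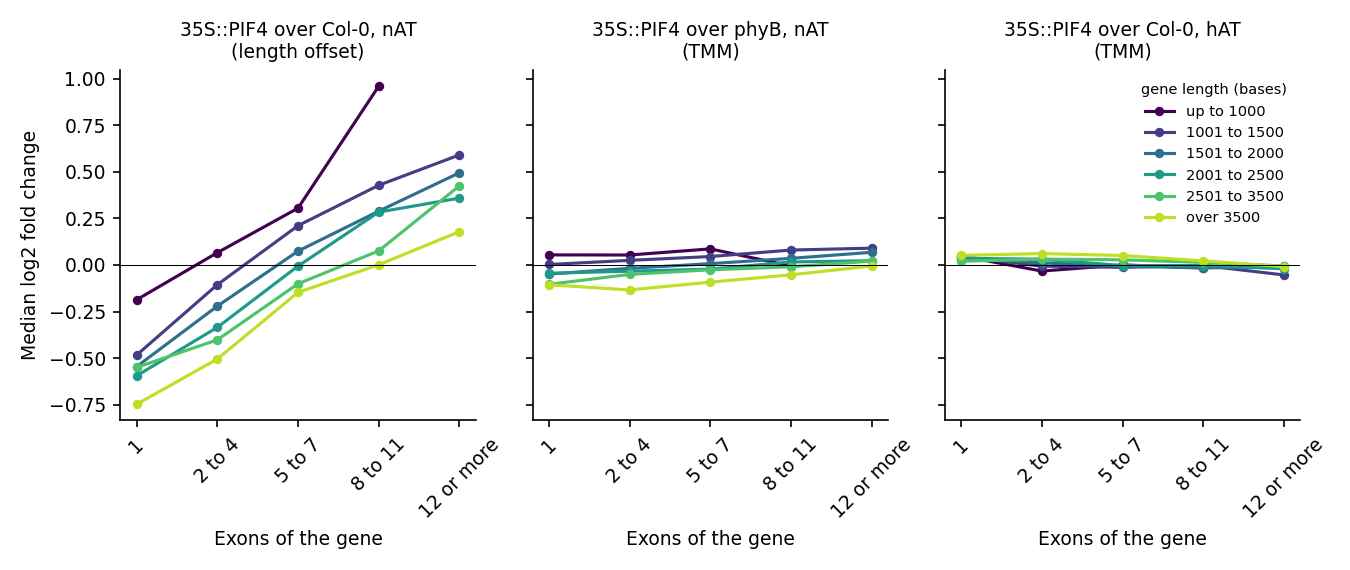
Median log2 fold change of genes by number of exons (horizontal axis) and gene length (colour), for 35S::PIF4 over Col-0 at nAT with the length offset and for 35S::PIF4 over phyB at nAT and over Col-0 at hAT with TMM scaling. At nAT against Col-0 the medians climb with exon number in each length class, and in the other comparisons they stay near 0.

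An offset on length and exon number together, added after this trend was seen, was fitted to show which calls remained with both trends taken out. It removes a smooth average trend, and the part of length or exon number in a single call was not tested. With it 1759 genes were higher and 668 lower in both that fit and the TMM fit. They included 1644 of the 2065 higher genes (79.6%) and 584 of the 976 lower genes (59.8%). CDC20-2 (3.07), DCL1 (1.38), KIN7F (1.39) and KIN4B (1.29) stayed called, while AGO9 (0.81), KIN7G (0.94), KIN7M (0.92), DCL2 (0.88), SR30 (0.97), SR45A (0.90), CYCB3;1 (0.88), CYCA2-2 (0.70) and CDC6 (0.59) fell under the fold threshold. Of all tested genes 8.91% were then higher and 3.38% lower. The shares higher were 6.25% of the kinesins (3 genes), 11.4% of the mitotic cycle genes (4), 6.25% of the replication genes (2), 5% of the SR genes (1) and 4.76% of the small RNA genes (1). None of these shares was far above that of all genes, and the 4 mitotic genes include CDC20-1 and CDC20-2, which may share reads.

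Hormone genes changed in small numbers and in both directions. None of 19 tested genes of auxin synthesis and transport was called in both fits. TAA1, which starts the main route of auxin synthesis, averaged 74.0 ± 3.8 CPM in 35S::PIF4 and 97.9 ± 5.5 CPM in Col-0, and the influx carrier AUX1 95.4 ± 2.7 CPM in 35S::PIF4 and 138 ± 18 CPM in Col-0 (SD, n = 4 each), with AUX1 called lower by the offset alone. Of 68 auxin response genes 1 was higher and 1 lower in both fits (1.47% each, against 10.5% and 4.94% of all tested genes), with medians of -0.36 with TMM scaling and -0.21 with the offset. They were IAA32 at 1.03 and SAUR78 at -1.01 with the offset, both calls that leaving out 1 library could end. SAUR50 was lower with TMM scaling alone, at -1.72 against -0.96 with the offset.

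Of 17 gibberellin genes 4 were lower and 2 higher in both fits (23.5% and 11.8%, against 4.94% and 10.5% of all tested genes), with medians of -0.67 and -0.52. In CPM scaled over all 24 libraries, the list summed to 1180 to 1260 in Col-0 at nAT and 615 to 718 in the other groups. RGA (AT2G01570), a DELLA protein that restrains growth until gibberellin removes it, had 134, 155, 132 and 157 CPM in 35S::PIF4, against 328, 350, 327 and 322 CPM in Col-0. The log2 fold change was -1.20 with TMM scaling and -1.51 with the offset (SE 0.096, adjusted p = 1.5e-07), with a wide gap between the groups. RGL1 and RGL3, also DELLA genes, and the receptor gene GID1A were the other members that fell. The 3 DELLA genes have 1 exon each and GID1A has 2, and with the length and exon-number offset none of the 4 was called, at -0.93 for RGA, -0.60 for RGL1, -0.72 for RGL3 and -0.75 for GID1A. Without Col-0 replicate 2, GID1A (-0.92) and RGL1 (-0.99 with TMM scaling) lost their calls and 2 of the list were lower.

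Brassinosteroid synthesis genes divided. CYP85A1 and CYP85A2, which act in its last steps, and CYP90C1 rose by 1.31, 1.23 and 1.04 with the offset, of which CYP85A1 kept its call with the length and exon-number offset. DIM, a sterol reductase early in the route, averaged 476 ± 16 CPM in 35S::PIF4 and 1091 ± 108 CPM in Col-0 (SD, n = 4 each), or -1.75 with the offset. In all, 3 of 21 genes were higher and 2 lower (14.3% and 9.52%, against 10.5% and 4.94% of all tested genes), with medians of -0.19 and -0.29. Of 28 jasmonate genes 4 were lower in both fits (14.3%, against 4.94% of all tested genes) and none was higher, with medians of -0.53 and -0.60. Scaled over all 24 libraries, the CPM of the jasmonate list summed to 18300 to 20100 in Col-0 at nAT and 7170 to 10900 in the other groups. VSP2 (AT5G24770), a vegetative storage protein induced by jasmonate, had 644, 792, 668 and 978 CPM in 35S::PIF4, against 2157, 2194, 2310 and 2043 CPM in Col-0. AOC3, AOC2 and CYP74A (allene oxide synthase), which make jasmonate precursors, fell by 1.81, 2.08 and 1.37 with the offset, and CYP74A was not called with the length and exon-number offset (-0.82). VSP2 had a log2 fold change with the offset of -1.31 (SE 0.12, adjusted p = 1.7e-06), and no library overlapped.

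In the other hormone and stress lists, 2 of 24 abscisic acid, cold and drought genes were higher and 3 lower (medians -0.55 and -0.42), 2 of 15 ethylene genes lower (EBF1 at -1.83 and ACO4 at -1.04, medians -0.19 and -0.69), 1 of 21 cytokinin genes higher (ARR8 at 1.48, medians -0.06 and -0.04) and 1 of 14 salicylic acid genes lower (PAD4 at -1.29, medians -0.01 and -0.20). The shares higher were 8.33% for the abscisic acid list and 4.76% for cytokinin, against 10.5% of all tested genes. The shares lower were 12.5%, 13.3% and 7.14% for abscisic acid, ethylene and salicylic acid, against 4.94%. PAD4 was not called with TMM scaling without Col-0 replicate 1 (-0.999) or 2 (-0.92) or 35S::PIF4 replicate 1 (-0.97) or 3 (-0.98), nor with the length and exon-number offset (-0.86). ACO4 was not called with the offset without Col-0 replicate 1 (-0.99) or 2 (-0.98), nor with the length and exon-number offset (-0.96). SIR3, described as the molybdenum cofactor sulfurase ABA3 needed for abscisic acid synthesis, averaged 16.4 ± 1.1 CPM in 35S::PIF4 and 1.95 ± 0.66 CPM in Col-0 (SD, n = 4 each). The cold-induced KIN2 had 126, 140, 131 and 124 CPM in 35S::PIF4, against 491, 881, 331 and 481 CPM in Col-0, with the widest spread among the Col-0 libraries, and shares most of its sequence with KIN1, which also fell.

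Genes induced by sulfur deficiency were among those that fell. Of 16 tested, 6 were lower in both fits (37.5%, against 4.94% of all tested genes) and 1 was higher, with medians of -1.25 with TMM scaling and -1.02 with the offset. APR2 (AT1G62180), an adenylylsulfate reductase that commits sulfate to cysteine synthesis, had 28.8, 25.9, 31.8 and 21.9 CPM in 35S::PIF4, against 82.1, 100.1, 96.5 and 76.9 CPM in Col-0. The log2 fold change with the offset was -1.84 (SE 0.12, adjusted p = 2.0e-07), and the groups were far apart. APR1 and APR3, its paralogs, fell by 1.70 and 1.41, and LSU1 and LSU3 by 2.36 and 1.66. With the length and exon-number offset 7 of the 16 were lower. At hAT none of the 16 was called in either direction in both fits. The list's CPM, scaled over all 24 libraries, summed to 669 to 803 in Col-0 at nAT and 209 to 367 in the other groups.

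Some cell wall and surface protein genes also fell. Of 36 expansin and XTH genes, whose products loosen or remodel the cell wall, 5 were lower and 2 higher in both fits, with medians of -0.81 and -0.52. These are 13.9% and 5.56%, against 4.94% and 10.5% of all tested genes. XTH9 (AT4G03210) had 859, 909, 875 and 788 CPM in 35S::PIF4, against 2856, 4639, 2189 and 2691 CPM in Col-0. Its log2 fold change with the offset was -1.65 (SE 0.16, adjusted p = 2.6e-06). EXPA11, XTH22 and XTH7 fell by 1.58, 1.64 and 1.61. Lipid transfer proteins, short and closely related proteins of the cuticle, had 5 of 9 genes lower in both fits and none higher, with medians of -1.61 and -1.02. The share lower was 55.6%, against 4.94% of all tested genes and 8.55% of the shortest length class. Scaled over all 24 libraries, their CPM summed to 13800 to 18100 in Col-0 at nAT and 3220 to 6620 in the other groups. LTP1 averaged 2927 ± 199 CPM in 35S::PIF4 and 10150 ± 1479 CPM in Col-0 (SD, n = 4 each), and with the length and exon-number offset 1 of the 9 was called lower. LTP1 (-0.93), LTP2 (-0.89) and LTP5 (-0.94) were then just under the fold threshold, with a list median of -0.89 and adjusted p-values of 2.5e-07, 5.7e-07 and 3.1e-07.

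In the flavonoid list 2 of 18 genes were higher and 1 lower (11.1% and 5.56%, against 10.5% and 4.94% of all tested genes), with medians of -0.16 and -0.07. CHS, chalcone synthase, fell by 1.27 with the length offset but was not called with the length and exon-number offset (-0.93), and MYB11, an activator of flavonol genes, averaged 12.6 ± 1.7 CPM in 35S::PIF4 and 4.05 ± 0.17 CPM in Col-0 (SD, n = 4 each). Of 18 clock genes 3 were higher and 3 lower (16.7% each, against the same shares of all genes), with medians of 0.50 and -0.19. APRR7 and APRR9, repressors of the morning loop, rose by 1.29 and 1.12 with the offset, and were also called higher in 35S::PIF4 at hAT, at 1.23 and 1.95. TCP21 fell by 1.22. Among 33 heat shock genes 2 were higher and 1 lower at nAT (6.06% and 3.03%), with medians of -0.21 and -0.06 (HSFA2 and HSFA1A up, HSFB2A down). At hAT 24 of 33 were higher in 35S::PIF4, where 1.58% of all tested genes were. The difference between the temperatures was not tested.

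Photosynthesis and translation genes, most of them short, had many calls that the length offset removed. Of 199 cytosolic ribosomal protein genes 82 were lower with TMM scaling and 9 in both fits (4.52%, against 4.94% of all tested genes), with 1 higher and medians of -0.92 and -0.28. Without Col-0 replicate 2 the 9 became 4, and with a straight line in place of the smooth length trend they became 19. Of 42 nuclear photosystem and light-harvesting genes 18 were lower with TMM scaling and 4 in both fits (9.52%), with 2 higher (4.76%, against 10.5% of all tested genes) and medians of -0.90 and -0.51. With a straight-line trend 10 were lower, and with an offset on length and GC content 2. LHCB1.3, a light-harvesting protein of photosystem II with near-identical copies, averaged 1374 ± 159 CPM in 35S::PIF4 and 4279 ± 322 CPM in Col-0 (SD, n = 4 each).

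Transcripts of the organelle genomes took a smaller share of the counts in 35S::PIF4 than in Col-0 at nAT, which stood apart from all other groups. In CPM scaled over all 24 libraries, chloroplast genes summed to 197 to 261 in Col-0 at nAT and 42.3 to 128 in the other groups. Mitochondrial genes summed to 591 to 947 in Col-0 at nAT and 158 to 378 in the other groups. Chloroplast genes took 0.00887 to 0.0116% of the counts in 35S::PIF4 and 0.0159 to 0.0211% in Col-0, and mitochondrial genes 0.0242 to 0.0334% in 35S::PIF4 and 0.0458 to 0.0762% in Col-0. Of 55 tested chloroplast genes 21 were lower (38.2%, against 4.94% of all tested genes) and 3 higher in both fits, with medians of -1.30 and -0.74 (13 lower with a straight-line trend, and 1 higher without Col-0 replicate 2), and of 26 mitochondrial genes 10 were lower (38.5%) and none higher, with medians of -1.35 and -0.52. Genes of both lists are short (median lengths 648 and 600 bases), and 8.55% of the shortest length class were lower in both fits. RBCL, the large subunit of Rubisco, averaged 6.74 ± 0.97 CPM in 35S::PIF4 and 26.7 ± 5.0 CPM in Col-0, and the mitochondrial RRN18, an 18S ribosomal RNA, 117 ± 17 CPM in 35S::PIF4 and 346 ± 78 CPM in Col-0 (SD, n = 4 each). The libraries were made from poly(A) RNA, which captures organelle transcripts poorly.

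Pistil tissue was present in both groups by its markers. All 19 ovule and integument genes and all 25 genes of carpel, style and transmitting tract were expressed well enough to be tested. In the ovule list 1 gene was higher in both fits (5.26%, against 10.5% of all tested genes) and none lower, with medians of 0.22 and 0.14. It was ATHB-9 (PHAVOLUTA), which sets the upper side of lateral organs. ATHB-9 averaged 77.5 ± 2.8 CPM in 35S::PIF4 and 18.2 ± 2.7 CPM in Col-0 (SD, n = 4 each), a call lost with the length and exon-number offset (0.98). In the carpel list 3 genes were lower (12%, against 4.94% of all tested genes) and none higher, with medians of -0.02 and -0.03. They were CRC, the YABBY factor of carpel and nectary development, and NGA1 and NGA2, which specify the style. CRC averaged 11.3 ± 1.6 CPM in 35S::PIF4 and 36.6 ± 6.2 CPM in Col-0 (SD, n = 4 each), or -1.20 with the offset on the log2 scale. With the length and exon-number offset CRC was still lower (-1.55), and NGA1 (-0.73) and NGA2 (-0.74), which have 1 exon each, were not called.

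Of 10 tested female gametophyte genes 1 was lower in both fits (10%, against 4.94% of all tested genes) and none higher, with medians of 0.20 and 0.31. MYB98, the synergid factor that turns on pollen tube attractants, averaged 0.381 ± 0.18 CPM in 35S::PIF4 and 1.17 ± 0.27 CPM in Col-0 (SD, n = 4 each). DME, the DNA glycosylase of the central cell, rose by 1.80 with TMM scaling and was at 0.02 with the offset, where its direction turned when Col-0 replicate 1 or 2 was left out. Defensin-like peptides, small secreted proteins that include pollen tube attractants of the synergids, were tested for 61 of 263 genes. They are short (median 457 bases), and in the shortest length class 8.55% of all genes were lower in both fits. With TMM scaling 42 defensin-like genes were lower, and 18 in both fits (29.5%, against 4.94% of all tested genes), with 1 higher and medians of -1.53 and -0.56. Their summed level was 446 to 523 CPM in 35S::PIF4 and 1040 to 1260 CPM in Col-0 with TMM scaling, and 634 to 695 CPM in 35S::PIF4 and 725 to 871 CPM in Col-0 with the offset. With all 24 libraries in the fit 40 were lower. In the comparison with phyB at nAT 22 of 54 tested were lower in 35S::PIF4 (4.33% of all tested genes were), and against Col-0 at hAT 4 of 52 were lower (1.49% of all). Of 8 tested SPL genes, targets of miR156, 1 was lower in both fits (12.5%, against 4.94% of all tested genes), with medians of -0.07 and -0.14. It was SPL13A, which has a near-identical copy and lost its call without Col-0 replicate 4 (-0.89 with the offset) or 35S::PIF4 replicate 1.

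Markers of other tissues were low and did not move as one. Of 19 tapetum markers 5 were tested, with 2 higher and 2 lower in both fits (40% each, against 10.5% and 4.94% of all tested genes). The summed level of the tapetum markers was 24.0 to 39.4 CPM in 35S::PIF4 and 21.5 to 53.2 CPM in Col-0. DYT1 and MS1, regulators that define the tapetum, had no read in the 8 libraries, while GRP17, a pollen coat oleosin, averaged 7.22 ± 5.6 CPM in 35S::PIF4 and 25.5 ± 13 CPM in Col-0 (SD, n = 4 each). Of 19 pollen markers 13 were tested, with 1 higher and 1 lower (7.69% each, against 10.5% and 4.94% of all tested genes). Their summed level was 67.9 to 126 CPM in 35S::PIF4 and 49.4 to 89.1 CPM in Col-0, and MYB120 had no read. The 4 genes of petal and stamen identity had no call in both fits and summed to 58.0 to 61.0 CPM in 35S::PIF4 and 87.2 to 106 CPM in Col-0. Of 16 seed markers 3 were tested and 1 was lower (33.3%, against 4.94% of all tested genes). The seed sum was 11.7 to 14.2 CPM in 35S::PIF4 and 26.9 to 33.1 CPM in Col-0. The storage protein genes CRA1, CRU2, SESA3 and SESA4 and the oleosin gene OLEO2 had no read. The petal, stamen and seed sums did not overlap between the groups and moved with the falls described above, and their part in them was not tested.

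**Figure D5:**
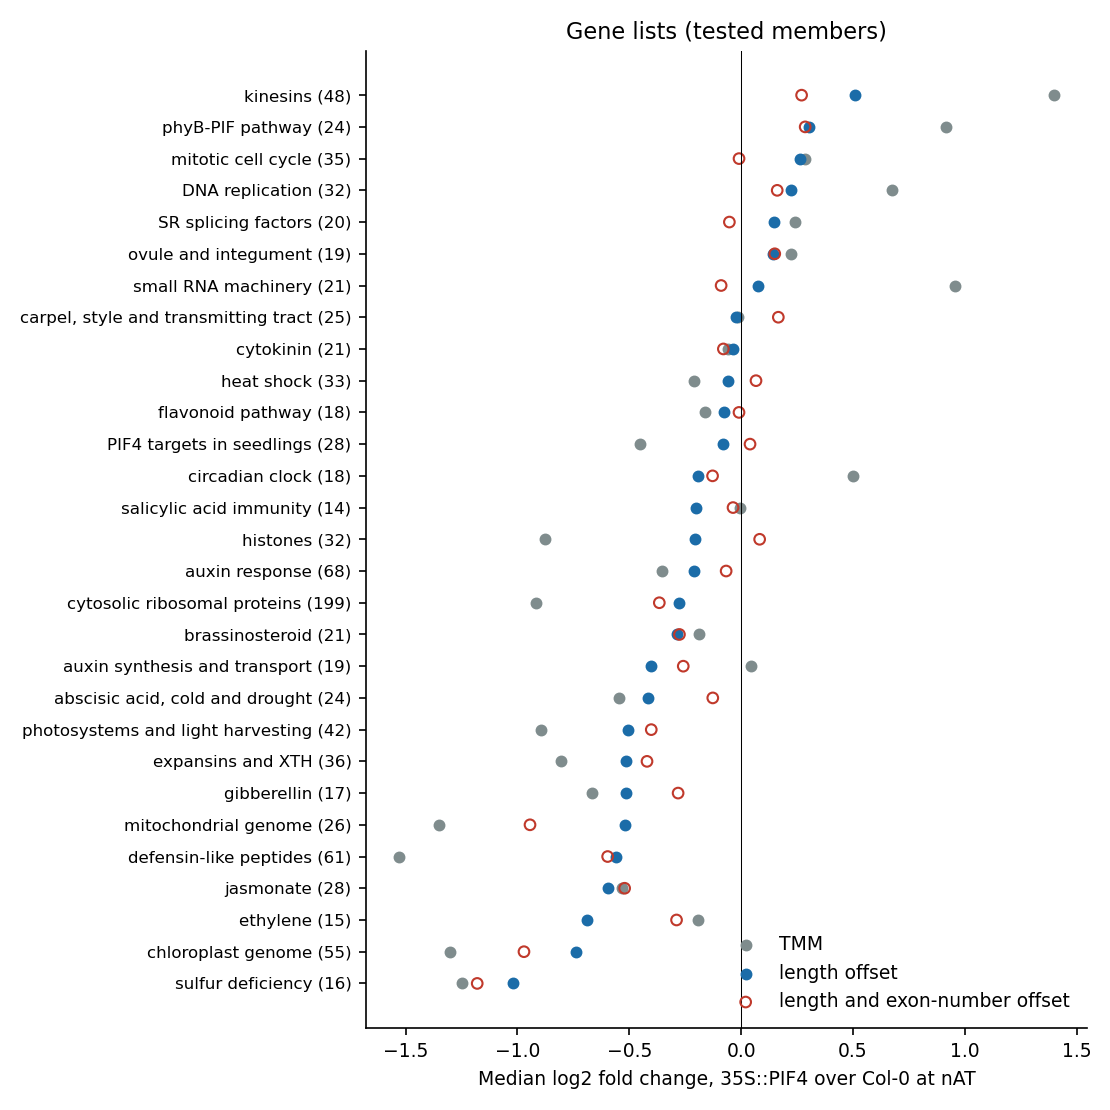
Median log2 fold change, 35S::PIF4 over Col-0 at nAT, of the tested members of each gene list with at least 14 of them (number tested in brackets), with TMM scaling (grey), with the length offset (blue) and with the length and exon-number offset (open red). Kinesins have the highest median with TMM scaling (1.4, against 0.51 with the length offset), and sulfur deficiency genes have the lowest with the length offset (-1.02).

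Non-coding transcripts stood out by biotype. Of 219 tested long non-coding RNAs 112 were higher in both fits (51.1%, against 9.63% of 19133 protein-coding genes) and 10 were lower, with a median of 1.66 with the offset. Of 81 snoRNAs 21 were higher and 3 lower (25.9% and 3.7%), and of 30 miRNA genes 11 and 1 (36.7% and 3.33%). Of 141 loci without a biotype 42 were higher and 6 lower (29.8% and 4.26%), and of 10 tRNA genes 4 and 5 (40% and 50%). Of 10 ribosomal RNA genes 7 were lower (70%). Organelle ribosomal RNA genes are also members of the organelle lists above. Of all tested genes 10.5% were higher and 4.94% lower. For the same long non-coding RNAs the median was 0.04 in 35S::PIF4 against Col-0 at hAT and 0.03 against phyB at nAT, and for the snoRNAs it was 0.47 and 0.41. Whether the libraries keep strand is not stated in the sources used here, so reads of a long non-coding RNA and of a gene it overlaps cannot be told apart.

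Genes called with TMM scaling alone included very long and very short ones. MDN1 (AT1G67120), an ATPase of ribosome assembly with 16614 exonic bases, had 111, 87.5, 122 and 101 CPM in 35S::PIF4, against 20, 7.85, 23.3 and 16.1 CPM in Col-0 with TMM scaling. With the offset it had 41.7, 39.8, 42.7 and 44.5 CPM in 35S::PIF4, against 41.6, 42.5, 36.7 and 33.6 CPM in Col-0. The log2 fold change was 2.65 with TMM scaling and 0.15 with the offset, where the groups overlapped. NUA, CALS8 and ATM, also long, moved to 0.87, 0.89 and 0.46 with the offset, against 2.57, 2.57 and 2.48 with TMM scaling. Among short genes OST4B, ROT4, LTP4 and the stress enhanced protein gene SEP1 fell with TMM scaling by 1.98, 1.78, 1.74 and 1.73, and with the offset they were at -0.97, -0.80, -0.97 and -0.997. BIG (AT3G02260), a giant protein of auxin transport, and SPI were called in opposite directions, at 1.14 and 1.06 with TMM scaling and -1.35 and -1.16 with the offset. Without Col-0 replicate 2 neither was called with TMM scaling (0.94 and 0.83). In all 5 long genes called with TMM scaling alone, KIN12D included, Col-0 at nAT was the lowest of the 6 groups. In the 5 short ones, SAUR50 included, it was the highest. Choosing the largest changes against Col-0 at nAT favours these ranks.

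Set beside the comparisons that use other Col-0 libraries or none, the contrast at nAT had more calls. In 35S::PIF4 against Col-0 at hAT 325 genes were higher (1.58% of those tested) and 306 lower (1.49%) in both fits, and in 35S::PIF4 against phyB at nAT 175 were higher (0.867%) and 874 lower (4.33%). With TMM scaling alone the counts were 332 (1.61%) and 338 (1.64%) at hAT and 198 (0.981%) and 877 (4.34%) against phyB. The comparison at hAT shares no library with the one at nAT. Of the 2065 genes higher at nAT, 48 were also higher at hAT (2.32% of them and 21% of the 229 called higher at hAT among genes tested in both), and 26 were lower. Of the 976 genes lower at nAT, 47 were also lower at hAT (4.82% of them and 25.5% of 184), and 18 were higher. The length offset changed few calls at hAT, where it left 325 of 332 higher and 306 of 338 lower genes.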

How the data were processed

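Poly(A) RNA of 24 Arabidopsis pistil libraries was sequenced by the authors as paired reads, trimmed with fqtools and mapped to TAIR10 with Araport11. The sources used here name no aligner and do not say whether strand was used. The authors counted reads per gene with featureCounts, and the deposited table holds these raw counts, 1 column a library, with exonic gene length and unannotated loci; a deposited table of FPKM values was not used here.

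Here the 8 libraries of 35S::PIF4 and Col-0 at nAT were fitted with edgeR 4.0.16 (R 4.3.3; TMM scaling, filterByExpr, two-sided quasi-likelihood test, Benjamini-Hochberg adjustment). Only these 8 entered, so that the spread came from the groups compared; the study itself used DESeq2. A call needed an adjusted p under 0.05 and a log2 fold change of 1 or more in size. The length offset was, per library, a loess curve (span 0.3, degree 1) of log2 CPM deviation on log2 length over genes with a mean of at least 1 CPM. Exon numbers came from the RefSeq annotation of TAIR10.1 for 19520 tested genes, and the rest, organelle genes included, were given the median. The scripts were tested on simulated data.

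The comparison, the genes and the 36 gene lists were chosen with earlier results of these data known. Named genes were PIF4 and PHYB, the 10 largest rises and 10 largest falls with the offset among named genes called in both fits with at least 5 CPM and no overlap, up to 4 members of each list by level, and the 5 largest changes each way called with TMM scaling alone, with those of opposite sign. Alternatives were all 24 libraries in the fit, DESeq2 1.42.0, RLE scaling, no low-count filter, a replicate block, a straight-line trend, an offset on length and GC content, and leaving out each library. An offset on length and exon number was added after the data were seen, as were DESeq2 and leaving out libraries in the comparisons at hAT and with phyB. No source says that replicates came from separate harvests, so p-values measure the spread between these samples.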

Additional observations from a re-analysis of the deposited data

Results flagged for a closer look

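Chance sets apart about 1 in 20 groups of 4 values by the rule used here, and 56 groups were examined. Col-0 replicate 2 at nAT had 18.5 CPM of LSU1, against 12.6 to 13.5 CPM in the other Col-0 libraries. FT stood at 3.74 CPM in Col-0 replicate 1 and at 2.08 to 2.29 CPM in the other 3. Col-0 replicate 4 was the deepest of its group, with 23.9 M counts, against 18.4 to 18.8 M in the others. In 35S::PIF4, replicate 2 had 23884 genes with at least 1 count, against 23498 to 23532 in the others.

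Among named genes, AHA10 and HSFB2A had opposite signs at nAT and hAT with every library of a group on one side. With TMM scaling AHA10, a proton pump of seed coat tannin storage, had a log2 fold change of 35S::PIF4 over Col-0 of 2.27 at nAT and -1.18 at hAT. HSFB2A, a heat shock factor, had -1.32 at nAT and 1.36 at hAT. The difference between the temperatures was not tested.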

How the results depend on the processing

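Over all alternatives, 1759 to 2444 genes were higher and 668 to 1355 lower in both fits, against 2065 and 976. With TMM scaling alone the counts were 3540 to 4193 higher and 2012 to 2643 lower, and with the offset alone 2217 to 3139 and 1029 to 1945. Leaving out 1 library gave 2052 to 2238 higher and 887 to 1083 lower genes in both fits. Without Col-0 replicate 2, which deviated most along length, 91.9% of the higher and 80.2% of the lower genes kept their call. Same-numbered replicates did not pair as a rule. Their deviations correlated at 0.065, 0.331, 0.232 and -0.127 for replicates 1 to 4, against at most 0.201, -0.139, 0.214 and 0.142 with another number. Replicates 2 and 3 thus correlated most with their own number, and 1 and 4 did not. A replicate block gave 2089 higher and 957 lower genes in both fits, 3733 and 2365 with TMM scaling and 2591 and 1408 with the offset. The counts at hAT were 323 to 364 higher and 313 to 371 lower, and against phyB 175 to 230 and 859 to 1060.

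Signs turned for values near 0: PR5 was at -0.0789 with a straight-line trend, and DME at -0.00392 without Col-0 replicate 1 and -0.00149 without replicate 2, in a range up to 0.0687 over the libraries left out. In each case the gene was not called. The cause was not tested. The length trend is confined to the Col-0 libraries at nAT among the 6 groups, so it cannot be told apart from a genotype difference that follows length, and the offset would remove both.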
